A study of Mus musculus with 12 samples.

Results

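Transcripts of the integrin subunits and laminin chains were followed in the small intestine of C57BL/6J mice. The genes were all protein-coding rows of the expression tables whose symbols name an integrin alpha or beta subunit or a laminin alpha, beta or gamma chain. That gave 37 of 54532 genes, 26 integrin subunits and 11 laminin chains. Whole small intestine gave 12 RNA-seq libraries, 3 each for CKO NEC, flox NEC, CKO control and flox control. CKO mice are labelled as a Piezo1 knockout specific to intestinal epithelial cells, and flox mice are their floxed controls. Piezo1 is an ion channel opened by membrane stretch, through which calcium enters cells. In the NEC groups necrotizing enterocolitis, a severe bowel inflammation with dying tissue that strikes mainly the preterm newborn, had been induced, and in the control groups it had not. The sources used here give neither what drives the knockout, nor the exons it removes, the age of the mice or the way NEC was induced. The labels do not tie each library to a mouse of its own, and the p-values therefore measure the spread between libraries, which may be technical.

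Laminins are large proteins of the basement membrane, each assembled from an alpha, a beta and a gamma chain, and the sheet they form is what the intestinal epithelium and the muscle and vessels below it rest on. Integrins are receptors made of an alpha and a beta subunit that span the cell membrane, hold cells to laminins, collagens, fibronectin or other cells, and pass tension between the matrix and the cytoskeleton. In the gut, some of these genes are used mainly by epithelium, others by smooth muscle, fibroblasts, vessels or leukocytes, and a library of whole tissue sums over all of them. In such bulk RNA, fewer cells of a type and less RNA per cell cannot be told apart.

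The values are FPKM, reads per kilobase of gene scaled to library size, deposited in 1 table for the NEC libraries and 1 for the control libraries. Depth was 13057724 to 16821130 reads per library, recovered from the steps of the FPKM values. Genotypes were compared within a table on deposited FPKM. NEC was compared with control on reads rescaled by factors shared by all 12 libraries, called the shared scale below, because the deposited NEC values lay on average 0.14 log2 above that scale and the deposited control values -0.01. Condition and table are the same split, so NEC and any difference in handling between the tables cannot be told apart. As deposited, the CKO NEC libraries had 5.38, 5.58 and 3.23 FPKM of Piezo1, against 7.38, 7.23 and 6.76 FPKM in flox NEC, with no overlap (log2 change of -0.53 ± 0.18 SE, limma adjusted p = 0.840). The CKO control libraries had 1.71, 1.03 and 0.926 FPKM of Piezo1 and the flox control libraries 1.38, 1.44 and 1.09 FPKM, with overlap (-0.06 ± 0.19 SE, limma adjusted p = 0.846). In neither condition did Piezo1 in these whole-tissue libraries pass the test between the genotypes, so CKO and flox below are the groups as labelled. All 6 epithelial markers (Epcam, Cdh1, Vil1, Krt8, Krt20, Cdx2) were read in every library. Their summed level on the shared scale was 1862 to 2403 FPKM in CKO NEC, 1803 to 2090 in flox NEC, 2514 to 3130 in CKO control and 1799 to 2498 in flox control. CKO NEC library 3 had the lowest smooth muscle and fibroblast marker levels of the NEC libraries.

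**Figure D1:**
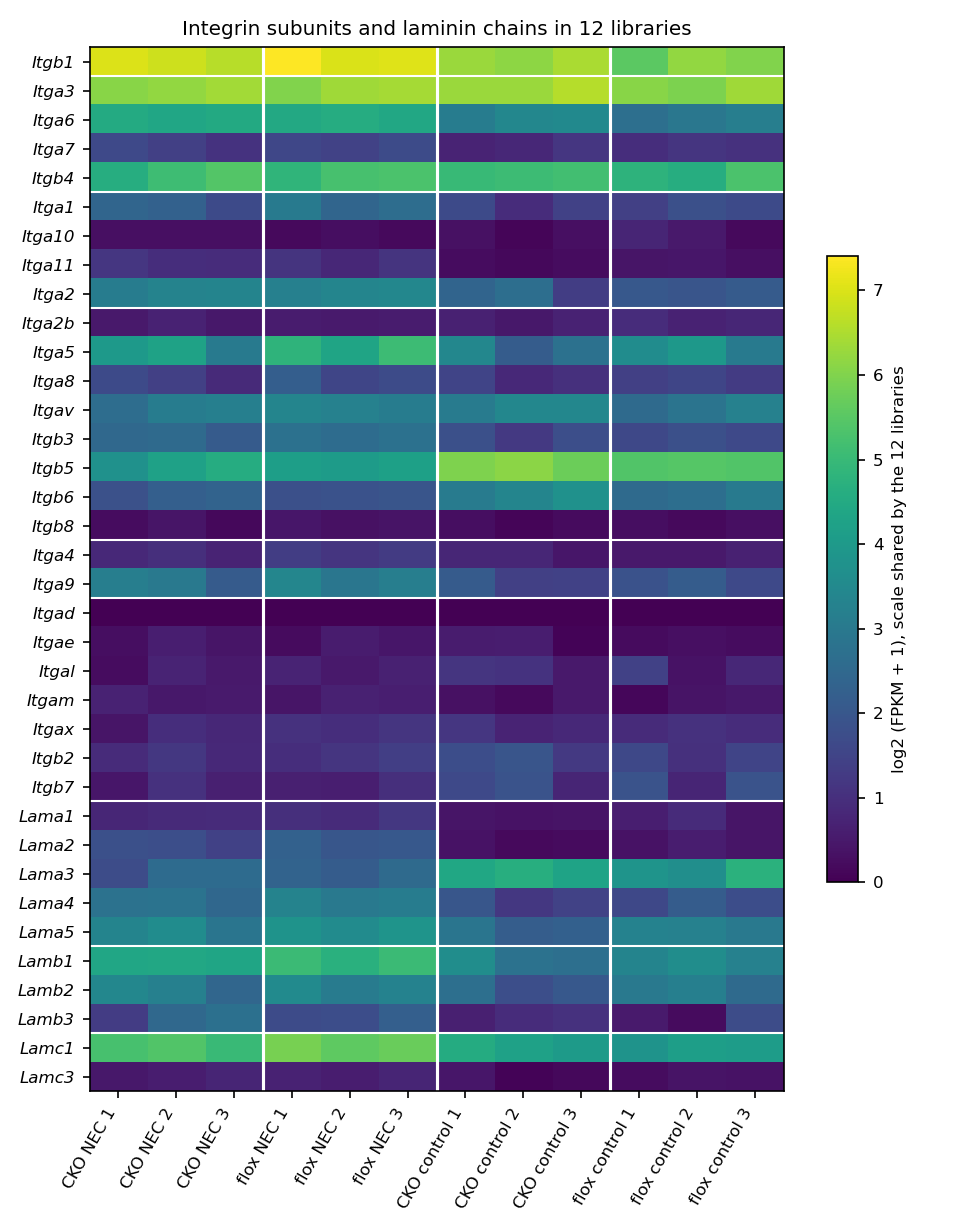
Level of the genes reported here in each of the 12 libraries, as log2 (FPKM + 1) on the scale shared by all libraries, with rows ordered by role and columns by group. Itgb1 and Itga3 are bright in every column, Lama3 and Itgb5 are brighter in the 6 control columns, and Lama2, low in all columns, is less dark in the 6 NEC columns.

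Averaged over all 12 libraries, the member with the highest FPKM was Itgb1 (ENSMUSG00000025809), the beta subunit shared by most integrins of the gut wall, on chromosome 8 from 128685654 to 128733200 (GRCm38). In both NEC groups it averaged above Itga3, the alpha subunit of an epithelial laminin receptor (113.5 ± 16.1 against 73.6 ± 7.78 FPKM on the shared scale in CKO NEC, and 141.9 ± 23.3 against 75.9 ± 10.8 in flox NEC, SD, n = 3). In both control groups the order of the means was the other way, with Itgb1 at 78.2 ± 8.93 and Itga3 at 83.1 ± 9.87 FPKM in CKO control and at 60.9 ± 14.1 and 69.4 ± 10.3 FPKM in flox control, differences smaller than their SDs. The members took 0.272% to 0.333% of reads in CKO NEC libraries, 0.346% to 0.407% in flox NEC, 0.192% to 0.219% in CKO control and 0.174% to 0.197% in flox control. At the other end, 8 members did not reach 1 FPKM on the shared scale in 3 libraries and were not tested between NEC and control. They were Itga2b, Itga10, Itgad, Itgae, Itgam, Itgb8, Lama1 and Lamc3. Their reads per library ranged between 0 and 1 for Itgad and between 38 and 197 for Lama1. Whether reads were counted by strand is not stated, and up to 8.04% of the exonic length of the members tested is shared with another annotated gene, such as an antisense gene over Lama2. Of the 29 tested, Itga4, Itga11 and Lama2 passed that filter through NEC libraries alone and Itgal through control libraries alone. Lamb3 reached 1 FPKM in 6 NEC and 2 control libraries, and Itgb7 in 2 NEC and 4 control libraries. The filter thus favoured a difference between the conditions in these members, and the counts over tested members are a description.

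NEC went with a broad rise of laminin chains and of several of their receptors in both genotypes, and with a fall of Lama3, Itgb5 and Itgb6. In CKO tissue 16 of the 29 tested members were higher and 4 lower in NEC than in control (limma, Benjamini-Hochberg adjusted p under 0.05), where 20.2% of the 14609 genes tested were higher and 23% were lower. In flox tissue 17 were higher and 3 lower, against 27.2% of all genes higher and 26.5% lower. The count of 17 fell to 11 without flox NEC library 1 or flox NEC library 3, where Itga4 and Itga11 no longer passed the filter. Over all genes, the calls in either direction fell from 7835 to 6730 and 6858. The median log2 change over the tested members was 0.78 in CKO and 0.61 in flox, beside -0.01 and 0.00134 over all genes. Without Itga4, Itga11, Lama2 and Itgal, which passed the filter through 1 condition alone, 14 were higher in CKO and 14 in flox, Lamb3 still among them. The 15 members higher in both genotypes made up 93.8% of those higher in CKO and 88.2% of those higher in flox. The same shares over all genes were not worked out, so this overlap cannot be called particular to the members. Lamb2 was called higher in CKO and not in flox, and Itga4 and Itga5 in flox and not in CKO. Lama3, Itgb5 and Itgb6 were lower in both genotypes, and Itgb2 in CKO but not in flox. None of the 29 members passed the test of the difference between the genotypes' NEC changes, which is given further on.

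**Figure D2:**
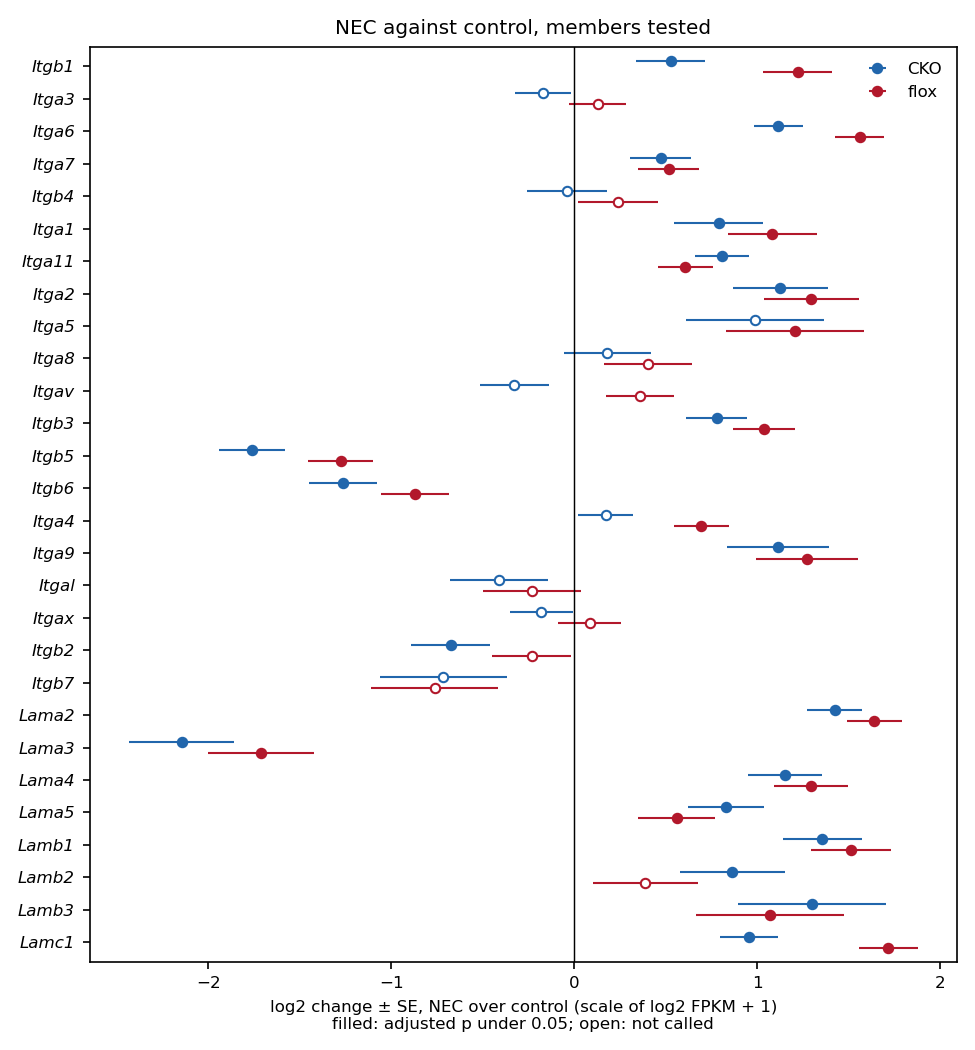
Change between NEC and control for the members reported here that were tested, as log2 change ± SE on the scale of log2 (FPKM + 1), with CKO above flox for each gene and filled points for adjusted p under 0.05. Laminin chains other than Lama3 lie to the right of 0 in both genotypes, while Lama3, Itgb5 and Itgb6 lie at the far left.

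Lama3 (ENSMUSG00000024421, chromosome 18, 12333819 to 12583013), the alpha chain of the epithelial laminin that anchors hemidesmosomes, had the largest fall of any member in either genotype. It stood at 2.29, 5.04 and 5.01 FPKM on the shared scale in CKO NEC libraries and at 20.4, 23.9 and 18.5 FPKM in CKO control libraries. In flox tissue it stood at 4.09, 3.47 and 4.92 FPKM in NEC libraries and at 13.3, 11.6 and 25.3 FPKM in control libraries. All 6 NEC libraries lay below all 6 control libraries, and CKO NEC library 1 was the lowest. The log2 change was -2.15 ± 0.29 SE in CKO (limma adjusted p = 0.000287) and -1.71 ± 0.29 SE in flox (adjusted p = 0.000509). The share of Lama3 in the summed FPKM of the 5 laminin alpha chains does not depend on how libraries are scaled. It was 11.1%, 19.7% and 27.2% in CKO NEC libraries and 67.4%, 81.9% and 75.3% in CKO control libraries. In flox tissue it was 13.2%, 13.8% and 16.2% in NEC libraries and 53.1%, 46.4% and 71.7% in control libraries. Lama3 thus held the largest share of alpha chain FPKM in each control library, and Lama5 did so in each NEC library.

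The other 3 alpha chains tested were higher in NEC. Lama2 (ENSMUSG00000019899, chromosome 10, 26980036 to 27619758), the alpha chain of muscle basement membranes, stood at 2.53, 2.46 and 1.69 FPKM on the shared scale in CKO NEC libraries and at 0.292, 0.141 and 0.155 FPKM in CKO control libraries (log2 change of 1.42 ± 0.15 SE, limma adjusted p = 8.37e-05). In flox tissue Lama2 stood at 3.91, 2.95 and 3.09 FPKM in NEC libraries and at 0.272, 0.521 and 0.350 FPKM in control libraries (1.64 ± 0.15 SE, adjusted p = 1.36e-05). It is one of the members that entered the test through NEC libraries alone, and no control library reached 1 FPKM. Because 1 is added before the logarithm, the changes of low members such as this one are understated, and limma-voom on recovered reads gave 3.55 in CKO and 3.16 in flox. Lama4, found in vessel and muscle basement membranes, stood at 5.89, 6.13 and 4.56 FPKM in CKO NEC libraries and at 2.94, 1.31 and 1.74 FPKM in CKO control libraries (1.15 ± 0.20 SE, adjusted p = 0.00118). Its levels in flox tissue were 8.88, 6.91 and 7.69 FPKM in NEC libraries and 2.06, 3.42 and 2.39 FPKM in control libraries (1.30 ± 0.20 SE, adjusted p = 0.000313). Each NEC library of either genotype was above each control library for both genes. Lama5, the main alpha chain beneath adult gut epithelium, stood at 9.24, 11.1 and 6.31 FPKM in CKO NEC libraries and at 6.29, 3.55 and 3.85 FPKM in CKO control libraries, with CKO NEC library 3 just above the highest CKO control library (0.83 ± 0.21 SE, adjusted p = 0.00836). In flox tissue Lama5 stood at 13.1, 11.0 and 13.3 FPKM in NEC libraries and at 8.82, 8.63 and 6.93 FPKM in control libraries (0.56 ± 0.21 SE, adjusted p = 0.0410). That flox call was lost on leaving out CKO NEC 1, flox NEC 1, flox NEC 3 or any of flox control 1, 2 and 3, with changes of 0.46 to 0.62 and adjusted p of 0.05 to 0.123. Lama1, an alpha chain prominent in the embryo, was under the filter, with a mean of 0.813 ± 0.0727 FPKM in CKO NEC and 0.311 ± 0.0367 FPKM in CKO control (SD, n = 3), and of 1.07 ± 0.227 FPKM in flox NEC and 0.579 ± 0.269 FPKM in flox control.

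Lamb3 encodes a beta chain that joins the Lama3 chain in epithelial laminin, and it was higher in NEC while Lama3 was lower. Lamb3 stood at 1.51, 4.69 and 5.60 FPKM on the shared scale in CKO NEC libraries and at 0.579, 0.938 and 1.06 FPKM in CKO control libraries (1.30 ± 0.40 SE, limma adjusted p = 0.0231). Its flox levels were 2.22, 2.39 and 3.71 FPKM in NEC libraries and 0.462, 0.165 and 2.27 FPKM in control libraries, where flox control library 3 overlapped the NEC range (1.07 ± 0.40 SE, adjusted p = 0.0425). The CKO call of Lamb3 was lost without CKO NEC 2, CKO NEC 3 or CKO control 1 (changes of 1.03 to 1.19, adjusted p of 0.0666 to 0.0800). Its flox call was lost without any of flox NEC 1, 2 and 3, CKO control 1, 2 and 3, or flox control 1 and 2 (0.77 to 1.17, adjusted p of 0.0511 to 0.154). By limma-voom the Lamb3 changes were 2.0 in CKO and 2.27 in flox. Only 2 control libraries reached 1 FPKM of Lamb3, so control libraries by themselves would not have brought it into the test.

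The widely used beta 1 and gamma 1 chains rose in both genotypes. Lamc1 (ENSMUSG00000026478, chromosome 1, 153218922 to 153332786), the gamma chain of most laminins, stood at 37.5, 41.3 and 31.6 FPKM on the shared scale in CKO NEC libraries and at 22.4, 17.9 and 15.4 FPKM in CKO control libraries (0.96 ± 0.16 SE, limma adjusted p = 0.000951). In flox tissue Lamc1 stood at 58.5, 46.3 and 52.0 FPKM in NEC libraries and at 12.9, 16.8 and 16.0 FPKM in control libraries (1.72 ± 0.16 SE, adjusted p = 1.49e-05). Flox NEC libraries were the highest of all 12, and no NEC library overlapped a control library. Lamb1, the usual partner of Lamc1, stood at 20.02, 20.9 and 19.6 FPKM in CKO NEC libraries and at 11.5, 5.88 and 5.54 FPKM in CKO control libraries (1.36 ± 0.22 SE, adjusted p = 0.000716). Its flox levels were 31.98, 24.95 and 32.02 FPKM in NEC libraries and 9.24, 11.4 and 8.58 FPKM in control libraries (1.51 ± 0.22 SE, adjusted p = 0.000188). Again the 6 NEC libraries were all above the 6 control libraries, and the CKO NEC libraries sat between the control and flox NEC libraries. Lamb2, the beta chain of synaptic and vascular laminins, averaged 7.57 ± 2.79 FPKM in CKO NEC and 3.69 ± 1.60 FPKM in CKO control (SD, n = 3, change of 0.86 ± 0.29 SE, adjusted p = 0.0310). That call was lost without CKO NEC 1, CKO NEC 2, CKO control 2 or CKO control 3 (0.66 to 0.80, adjusted p of 0.0854 to 0.119). In flox tissue Lamb2 averaged 9.01 ± 1.64 FPKM in NEC and 6.70 ± 1.64 FPKM in control and was not called (0.39 ± 0.29 SE, adjusted p = 0.274).

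**Figure D3:**
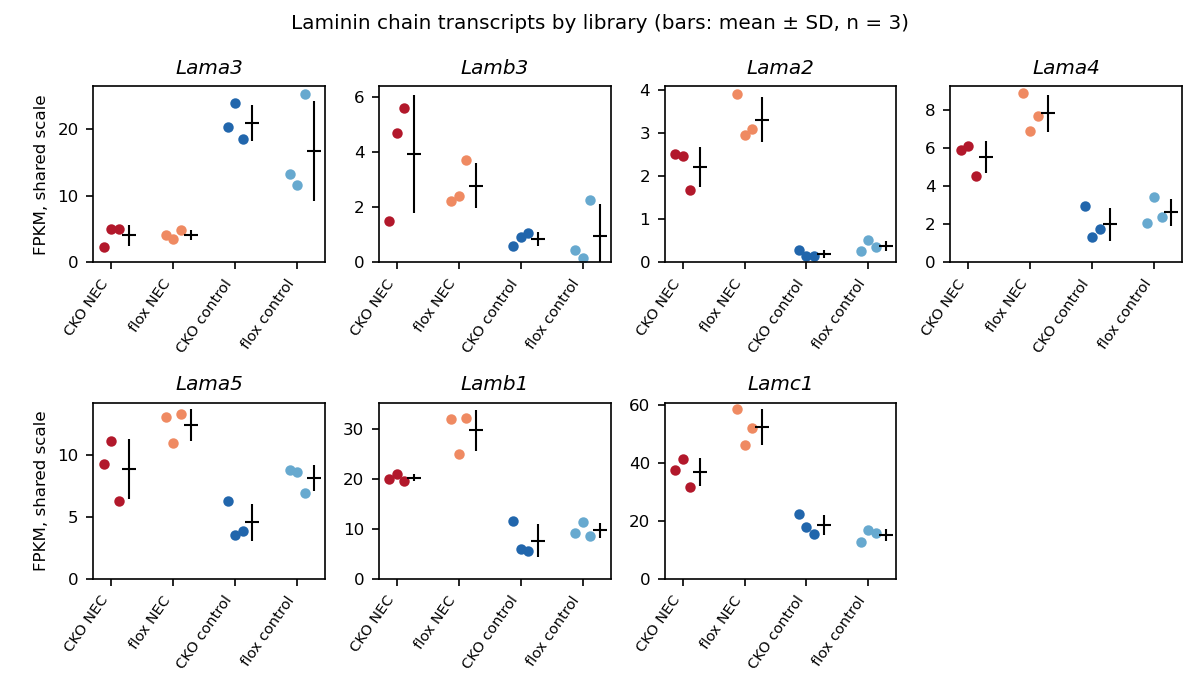
FPKM on the shared scale of 7 laminin chains in each library (points) with the group mean ± SD (bars, n = 3, cut at 0 where the SD exceeds the mean). Lama3 is the panel in which the NEC libraries lie below the control libraries, and in the Lama2, Lama4, Lamb1 and Lamc1 panels each NEC library is above each control library.

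Lama2 and Lamb1 had the largest rises of the laminin chains in CKO tissue on the log2 (FPKM + 1) scale, and their promoters are shown for that reason. Each window of 300 bases ends just past the transcript start and comes from RefSeq on GRCm38.p6, written 5′ to 3′ on the gene's strand at chr10:27616893-27617192 (minus) for Lama2 and chr12:31265043-31265342 (plus) for Lamb1. Capitals mark the GC box GGGCGG, read on either strand, so that CCGCCC is the same box on the other strand.
Lama2: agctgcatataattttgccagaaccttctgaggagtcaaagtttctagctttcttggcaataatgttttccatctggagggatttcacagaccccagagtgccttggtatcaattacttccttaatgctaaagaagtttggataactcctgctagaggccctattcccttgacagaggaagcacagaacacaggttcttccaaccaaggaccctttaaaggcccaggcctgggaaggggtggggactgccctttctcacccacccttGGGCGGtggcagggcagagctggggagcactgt
Lamb1: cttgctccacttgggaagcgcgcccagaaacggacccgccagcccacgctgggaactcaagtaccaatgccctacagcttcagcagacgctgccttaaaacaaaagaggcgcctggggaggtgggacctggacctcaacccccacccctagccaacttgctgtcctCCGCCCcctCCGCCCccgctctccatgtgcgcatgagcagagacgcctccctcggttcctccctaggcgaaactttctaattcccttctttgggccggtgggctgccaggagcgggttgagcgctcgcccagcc
The GC box occurred 1 time in the Lama2 window and 2 times in the Lamb1 window, and 35.6% of 32817 promoters of this length held it. Neither window held the AP-1 motif TGANTCA (7.81% of promoters), the TEAD motif GGAATG (14.7%) or the TATA box TATAAA (13.6%), each read on both strands, with no overlaps between motifs. The 2 windows differ in base composition, at 50.3% GC for Lama2 and 63.7% for Lamb1. Promoter windows were matched for 23 of the 37 members. Of these, 11 members had the GC box, 3 the AP-1 motif, 3 the TEAD motif and 0 the TATA box.

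Among the laminin receptors, Itga6 rose, while the alpha subunit Itga3 and the beta subunit Itgb4 did not pass the test. Itga6 (ENSMUSG00000027111, chromosome 2, 71745616 to 71858416), which pairs with Itgb4 in hemidesmosomes and with Itgb1 elsewhere, stood at 22.0, 19.9 and 21.5 FPKM on the shared scale in CKO NEC libraries and at 7.65, 9.69 and 10.5 FPKM in CKO control libraries (1.12 ± 0.13 SE, limma adjusted p = 0.000158). In flox tissue Itga6 stood at 21.1, 22.9 and 20.8 FPKM in NEC libraries and at 5.58, 6.66 and 7.92 FPKM in control libraries (1.56 ± 0.13 SE, adjusted p = 1.00e-05). The NEC libraries were tightly grouped at about the same level in both genotypes, far above each control library. Itga3 stood at 66.5, 72.4 and 81.9 FPKM in CKO NEC libraries and at 78.1, 76.7 and 94.4 FPKM in CKO control libraries, with overlap (-0.17 ± 0.15 SE, adjusted p = 0.396). In flox tissue Itga3 stood at 63.6, 80.04 and 84.1 FPKM in NEC libraries and at 67.3, 60.2 and 80.6 FPKM in control libraries, also with overlap (0.13 ± 0.15 SE, adjusted p = 0.504), but after quantile normalization it was called higher in flox NEC (0.50 ± 0.11 SE, adjusted p = 0.00262). Itgb4, the hemidesmosome beta subunit, was not called either, with changes of -0.04 ± 0.22 SE in CKO (adjusted p = 0.897) and 0.24 ± 0.22 SE in flox (adjusted p = 0.376). The ratio of Itga6 to Itga3 FPKM was 0.331, 0.275 and 0.263 in CKO NEC libraries and 0.0980, 0.126 and 0.111 in CKO control libraries. In flox tissue that ratio was 0.332, 0.287 and 0.248 in NEC libraries and 0.0829, 0.111 and 0.0983 in control libraries. Between these laminin receptor subunits, per length, NEC libraries held more Itga6 relative to Itga3 than any control library.

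Itga7, the laminin receptor of muscle, stood at a mean of 1.64 ± 0.504 FPKM in CKO NEC and 0.891 ± 0.303 FPKM in CKO control (SD, n = 3, 0.47 ± 0.17 SE, limma adjusted p = 0.0387), and at 1.97 ± 0.240 FPKM in flox NEC and 1.08 ± 0.126 FPKM in flox control (0.52 ± 0.17 SE, adjusted p = 0.0215). The CKO call was lost without CKO NEC 1, CKO NEC 2, flox NEC 1, flox NEC 3, CKO control 1 or CKO control 2 (0.34 to 0.47, adjusted p of 0.0504 to 0.151). The flox call was lost without flox NEC 1, flox NEC 3 or flox control 1 (0.46 to 0.51, adjusted p of 0.0550 to 0.0741). Limma-voom gave Itga7 changes of 0.91 in CKO and 0.87 in flox. Itgb1 stood at 129.7, 113.1 and 97.6 FPKM on the shared scale in CKO NEC libraries and at 78.2, 69.3 and 87.2 FPKM in CKO control libraries (0.53 ± 0.19 SE, adjusted p = 0.0435). In flox tissue Itgb1 stood at 168.8, 126.6 and 130.3 FPKM in NEC libraries and at 45.5, 73.2 and 63.8 FPKM in control libraries (1.22 ± 0.19 SE, adjusted p = 0.000315). The NEC and control libraries did not overlap in either genotype. The CKO call of Itgb1 was lost without CKO NEC 1, CKO NEC 2, flox NEC 2, flox NEC 3, CKO control 1 or CKO control 2 (0.43 to 0.53, adjusted p of 0.0534 to 0.140), and the change was 0.93 after quantile normalization.

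The 3 collagen receptors tested were higher in NEC in each genotype. Itga2, which binds collagen on epithelium and platelets, stood at 7.72, 8.87 and 9.24 FPKM on the shared scale in CKO NEC libraries and at 4.25, 5.35 and 1.54 FPKM in CKO control libraries (1.13 ± 0.26 SE, limma adjusted p = 0.00531). CKO control library 3 was the lowest of all, and without it the CKO change was 0.73. In flox tissue Itga2 stood at 8.33, 9.39 and 9.74 FPKM in NEC libraries and at 3.14, 2.84 and 3.41 FPKM in control libraries (1.30 ± 0.26 SE, adjusted p = 0.00158), with no overlap. Itga1, the collagen receptor of smooth muscle and mesenchyme, averaged 3.48 ± 1.13 FPKM in CKO NEC and 1.59 ± 0.637 FPKM in CKO control (SD, n = 3, 0.79 ± 0.25 SE, adjusted p = 0.0229). It averaged 5.64 ± 1.57 FPKM in flox NEC and 2.09 ± 0.423 FPKM in flox control (1.08 ± 0.25 SE, adjusted p = 0.00323). The CKO call of Itga1 was lost without CKO NEC 1, CKO NEC 2 or CKO control 2 (0.58 to 0.70, adjusted p of 0.0769 to 0.0883). Itga11, a fibroblast receptor for fibrillar collagen, entered the test through NEC libraries alone. It averaged 1.03 ± 0.179 FPKM in CKO NEC and 0.157 ± 0.0417 FPKM in CKO control (0.81 ± 0.15 SE, adjusted p = 0.00151), and 1.02 ± 0.232 FPKM in flox NEC and 0.322 ± 0.0679 FPKM in flox control (0.61 ± 0.15 SE, adjusted p = 0.00508). By limma-voom the Itga11 changes were 2.69 in CKO and 1.64 in flox. Itga10, the cartilage-type collagen receptor, lay under the filter, and 33.5% of its exonic length is shared with another annotated gene.

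Itga9, a receptor for tenascin and for vascular adhesion molecules on smooth muscle and lymphatic endothelium, stood at 7.999, 7.03 and 3.35 FPKM on the shared scale in CKO NEC libraries and at 3.35, 1.66 and 1.69 FPKM in CKO control libraries (1.11 ± 0.28 SE, limma adjusted p = 0.00819). CKO NEC library 3 was level with CKO control library 1. In flox tissue Itga9 stood at 9.45, 6.57 and 7.93 FPKM in NEC libraries and at 2.64, 3.45 and 2.08 FPKM in control libraries, without overlap (1.27 ± 0.28 SE, adjusted p = 0.00271). Itga4, the alpha subunit of leukocyte receptors for VCAM-1, was called in flox tissue (0.70 ± 0.15 SE, adjusted p = 0.00250) with 1.54, 1.21 and 1.47 FPKM in flox NEC libraries and 0.428, 0.419 and 0.603 FPKM in flox control libraries. It had passed the filter through NEC libraries alone, and its limma-voom change in flox was 1.55. In CKO tissue Itga4 averaged 0.822 ± 0.169 FPKM in NEC and 0.622 ± 0.212 FPKM in control (0.17 ± 0.15 SE, adjusted p = 0.377).

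The receptors for fibronectin, vitronectin and latent TGF-beta split. Itgb5 (ENSMUSG00000022817, chromosome 16, 33829665 to 33949338), the beta subunit of an alpha v receptor for vitronectin, stood at 12.4, 18.0 and 22.8 FPKM on the shared scale in CKO NEC libraries and at 61.8, 69.0 and 52.8 FPKM in CKO control libraries (-1.76 ± 0.18 SE, limma adjusted p = 6.75e-05). In flox tissue Itgb5 stood at 16.9, 15.8 and 17.5 FPKM in NEC libraries and at 41.3, 43.1 and 41.4 FPKM in control libraries (-1.28 ± 0.18 SE, adjusted p = 0.000157). All NEC libraries were below all control libraries. Itgb6, the epithelial beta subunit of a receptor that releases active TGF-beta, stood at 2.57, 3.71 and 4.08 FPKM in CKO NEC libraries and at 7.55, 9.27 and 12.5 FPKM in CKO control libraries (-1.26 ± 0.19 SE, adjusted p = 0.000449). Its flox levels were 2.54, 2.66 and 2.84 FPKM in NEC libraries and 4.90, 5.33 and 7.09 FPKM in control libraries (-0.87 ± 0.19 SE, adjusted p = 0.00234). For Itgb6 too, no NEC library reached a control library. Itgav, the alpha subunit that both of these pair with, was not called: it averaged 7.04 ± 1.501 FPKM in CKO NEC and 9.02 ± 1.29 FPKM in CKO control (SD, n = 3, -0.33 ± 0.19 SE, adjusted p = 0.181), and 8.52 ± 0.784 FPKM in flox NEC and 6.54 ± 1.82 FPKM in flox control (0.36 ± 0.19 SE, adjusted p = 0.126). Without flox control library 3 the flox change of Itgav was 0.54 and was called (adjusted p = 0.0266).

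Other members of that class were higher in NEC. Itgb3, the beta subunit of the platelet fibrinogen receptor and of an alpha v receptor on vessels, averaged 4.29 ± 0.831 FPKM on the shared scale in CKO NEC and 2.10 ± 0.668 FPKM in CKO control (SD, n = 3, 0.78 ± 0.17 SE, limma adjusted p = 0.00369), and 5.58 ± 0.378 FPKM in flox NEC and 2.21 ± 0.228 FPKM in flox control (1.04 ± 0.17 SE, adjusted p = 0.000399). Itga5, the alpha subunit of the main fibronectin receptor, stood at 27.4, 18.96 and 32.5 FPKM in flox NEC libraries, against 11.0, 14.3 and 7.35 FPKM in flox control libraries (1.21 ± 0.38 SE, adjusted p = 0.0183). That call was lost without flox NEC 1, flox NEC 3 or flox control 3 (0.97 to 1.16, adjusted p of 0.0524 to 0.0679). In CKO tissue Itga5 stood at 14.95, 18.2 and 7.23 FPKM in NEC libraries and at 9.68, 3.49 and 5.75 FPKM in control libraries (0.99 ± 0.38 SE, adjusted p = 0.0533). CKO NEC library 3 overlapped the control libraries there, and without it the change was 1.35 and was called (adjusted p = 0.0131), as it was without CKO control 1 (1.31, adjusted p = 0.0213) and without flox control 3 (0.99, adjusted p = 0.0478). Itga8, a nephronectin receptor of mesenchyme, was not called in either genotype (0.18 ± 0.24 SE in CKO and 0.41 ± 0.24 SE in flox).

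The Itgb5 promoter is shown as that of the integrin subunit with the largest fall, from RefSeq on GRCm38.p6 at chr16:33829415-33829714 (plus), with capitals again marking the GC box GGGCGG on either strand.
Itgb5: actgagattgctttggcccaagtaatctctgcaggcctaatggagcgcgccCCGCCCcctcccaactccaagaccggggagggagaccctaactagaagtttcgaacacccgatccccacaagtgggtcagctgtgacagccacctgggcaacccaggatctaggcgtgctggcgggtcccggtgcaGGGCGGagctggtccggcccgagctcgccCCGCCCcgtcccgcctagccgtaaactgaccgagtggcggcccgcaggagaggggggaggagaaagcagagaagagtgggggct
It held 3 GC boxes, none of the other motifs searched, and 65.7% GC.

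Because the subunits of a library share its scaling, the make-up of the beta subunits could be read without it. Itgb5 made up 7.13%, 10.2% and 13.3% of summed beta subunit FPKM in CKO NEC libraries and 33.3%, 36.8% and 27.5% in CKO control libraries. Its flox shares were 7.54%, 8.36% and 8.85% in NEC libraries and 33.0%, 28.8% and 26.3% in control libraries. Itgb1 made up 57.1% to 74.4% in CKO NEC libraries and 36.9% to 45.4% in CKO control libraries, and 65.8% to 75.4% in flox NEC libraries and 36.4% to 49.0% in flox control libraries. Itgb4 kept a mean share of 18.9% ± 5.42 in CKO NEC and 17.5% ± 0.733 in CKO control, and of 17.2% ± 4.03 in flox NEC and 20.4% ± 4.30 in flox control (SD, n = 3). Lower Itgb5 and Itgb6 shares and a higher Itgb1 share thus marked each NEC library of both genotypes.

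**Figure D4:**
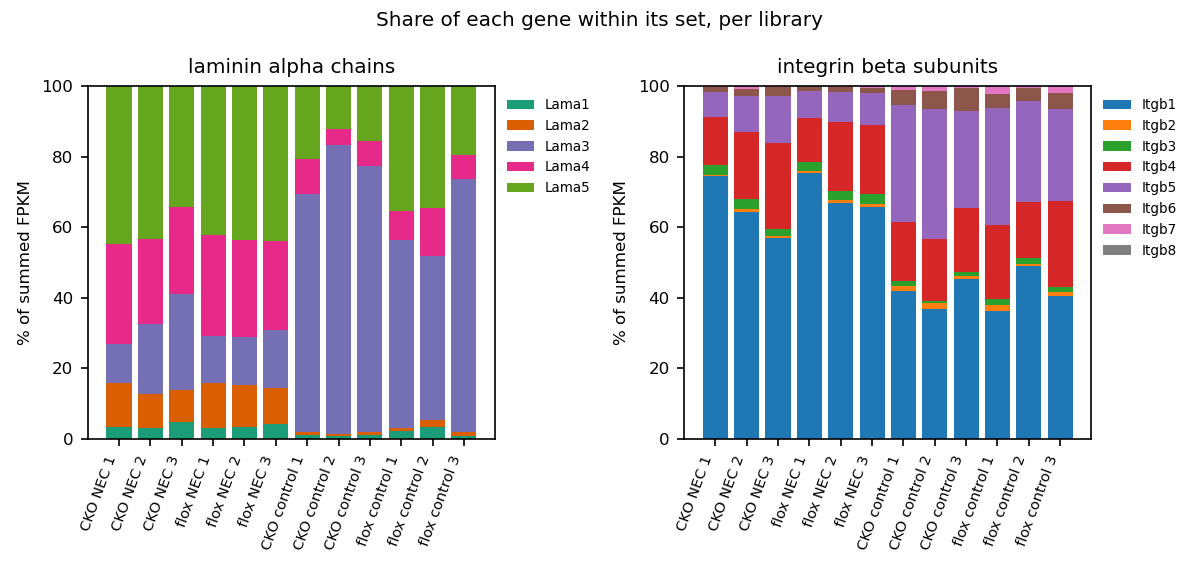
Share of each gene in the summed FPKM of the 5 laminin alpha chains (left) and of the 8 integrin beta subunits (right), in percent, 1 bar per library. Lama3 takes 11.1% to 27.2% of the alpha chains in NEC libraries and 46.4% to 81.9% in control libraries, and the Itgb5 band shrinks in NEC as the Itgb1 band grows.

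Leukocyte integrins were low, and 1 of the 4 tested passed the test, in 1 genotype. Itgb2, the beta subunit of several leukocyte integrins, stood at 0.863, 1.28 and 0.812 FPKM on the shared scale in CKO NEC libraries and at 2.40, 2.90 and 1.36 FPKM in CKO control libraries (-0.67 ± 0.22 SE, limma adjusted p = 0.0267). The CKO groups did not overlap, by a small margin, and the call was lost without CKO NEC 1, CKO NEC 3, CKO control 1 or CKO control 2 (-0.63 to -0.52, adjusted p of 0.0706 to 0.102). Limma-voom gave Itgb2 a change of -1.12 in CKO. In flox tissue Itgb2 stood at 0.967, 1.19 and 1.61 FPKM in NEC libraries and at 2.07, 1.05 and 1.90 FPKM in control libraries and was not called (-0.23 ± 0.22 SE, adjusted p = 0.386). Itgb7, the beta subunit of the gut-homing integrin, ranged from 0.369 to 1.08 FPKM in CKO NEC and from 0.710 to 2.74 FPKM in CKO control (-0.72 ± 0.35 SE, adjusted p = 0.117), and was called on leaving out CKO control 3 (-1.05, adjusted p = 0.0326). It ranged from 0.541 to 1.01 FPKM in flox NEC and from 0.688 to 2.74 FPKM in flox control (-0.76 ± 0.35 SE, adjusted p = 0.0847), where it was called on leaving out flox control 2 (-1.14, adjusted p = 0.0107). Itgal and Itgax, alpha subunits of lymphocytes and of dendritic cells, were not called in either genotype. Itgae, Itgam and Itgad lay under the filter, and 68.7% of the exonic length of Itgam is shared with another annotated gene.

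Markers of several cell types moved with the NEC comparison. Summed over 6 genes each, smooth muscle markers stood at 512 to 2007 FPKM on the shared scale in CKO NEC libraries and 186 to 594 in CKO control libraries, and at 1775 to 2796 in flox NEC and 678 to 866 in flox control. Fibroblast markers stood at 278 to 465 FPKM in CKO NEC and 56.1 to 161 in CKO control, and at 423 to 572 in flox NEC and 144 to 280 in flox control. Endothelial markers stood at 37.7 to 47.7 FPKM in CKO NEC and 17.3 to 30.5 in CKO control, and at 41.6 to 49.6 in flox NEC and 18.0 to 41.8 in flox control. The genes of these 3 lists were read in every library, but not all of them rose. In flox tissue the smooth muscle marker Tagln was lower in NEC (1.32, 1.26 and 1.24 FPKM) than in control libraries (2.17, 2.09 and 2.07 FPKM). Its CKO levels overlapped, at 0.623 to 0.893 FPKM in NEC and 0.771 to 1.28 FPKM in control. The endothelial markers Cldn5 and Emcn overlapped between NEC and control in both genotypes, and Tek did in flox. The macrophage sum was lower in NEC, at 40.2 to 54.4 FPKM in CKO NEC and 107 to 127 in CKO control, and at 49.9 to 60.2 in flox NEC and 114 to 133 in flox control. Within it, Csf1r stood at 14.4 to 22.5 FPKM in NEC libraries and 58.7 to 77.7 FPKM in control libraries. Adgre1 did not fall in either genotype, at 0.631, 1.37 and 1.07 FPKM in CKO NEC libraries and 0.726, 0.775 and 0.477 FPKM in CKO control libraries. In flox tissue Adgre1 stood at 1.36, 0.676 and 1.28 FPKM in NEC libraries and 0.410, 0.631 and 0.990 FPKM in control libraries. C1qb and C1qc overlapped between NEC and control in both genotypes, while C1qa and Cd68 did not. B cell markers stood at 0.370 to 0.962 FPKM in CKO NEC and 14.0 to 17.6 in CKO control, and at 0.624 to 2.36 in flox NEC and 2.73 to 40.0 in flox control. T cell markers summed to at most 2.002 FPKM in NEC and 4.70 in control libraries, with 3 of 5 at 0 in some library, and neutrophil markers to at most 2.84 FPKM in any library, with Ly6g and Mpo at 0 in 11 of 12. The part of these markers in the laminin and integrin changes was not tested.

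Between CKO and flox in NEC tissue, most laminin chains, though not Lamb3, and several integrins of the gut wall had lower means in CKO, but no member passed the threshold. The count was 0 of 27 tested members, where 0% of the 13673 genes tested passed. At an unadjusted p under 0.05 there were 9 members, beside 4.38% of all genes, and limma-voom called 0 members and 0 genes too. Of the 27, 22 had a log2 change below 0, and the median log2 change was -0.29, beside 0.01 over all genes. In 9 of 27 members (33.3%) every CKO NEC library lay below every flox NEC library, against 6.14% of all genes, and in 0 of 27 did every CKO NEC library lie above, against 4.83%. The 9 were Lama2, Lama4, Lamb1, Lamc1, Itga1, Itga4, Itga5, Itgb3 and Itgax. Of the CKO NEC libraries only library 2 reached 1 FPKM of Itga4 or Itgax, while each flox NEC library did. The filter thus favoured lower CKO values in these genes. Itgax parted narrowly, at 1.048 FPKM in CKO NEC 2 and 1.067 FPKM in flox NEC 2. Leaving out a library can only keep or add members below throughout. Without CKO NEC library 3, the library lowest in smooth muscle markers, such members were 33.3%, against 10.7% of all genes. Without CKO NEC 1, 4 of 27 lay above (14.8%, against 13.5% of all genes), Itgb5, Itgb6 and Lamb3 among them. As deposited, smooth muscle markers summed to 554.6 to 2216 FPKM in CKO NEC libraries and to 1966 to 3115 FPKM in flox NEC libraries, and fibroblast markers to 302 to 513 FPKM in CKO NEC and 468 to 638 FPKM in flox NEC. Mesothelial markers summed to 3.62 to 24.6 FPKM in CKO NEC and 19.9 to 45.5 FPKM in flox NEC, and platelet markers to 4.90 to 6.65 FPKM in CKO NEC and 6.41 to 8.68 FPKM in flox NEC. Neutrophil markers, 4 of 6 of them at 0 in some library, summed to 0.428 to 1.52 FPKM in CKO NEC and 2.61 to 3.13 FPKM in flox NEC, without overlap. The part of these markers in the differences was not tested.

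By unadjusted p the leading members were laminin chains. Lamb1 stood at 22.1, 23.2 and 21.2 FPKM as deposited in CKO NEC libraries and at 35.6, 27.6 and 35.4 FPKM in flox NEC libraries, with no overlap (-0.54 ± 0.13 SE, limma adjusted p = 0.840). Lamc1 stood at 41.4, 45.75 and 34.2 FPKM in CKO NEC libraries and at 65.2, 51.2 and 57.4 FPKM in flox NEC libraries (-0.51 ± 0.15 SE, adjusted p = 0.840). Lama4 stood at 6.504, 6.79 and 4.94 FPKM in CKO NEC libraries and at 9.89, 7.65 and 8.497 FPKM in flox NEC libraries (-0.46 ± 0.14 SE, adjusted p = 0.840). In these 3 genes the highest CKO NEC library was below the lowest flox NEC library. Without CKO NEC library 3 the changes were -0.51 for Lamb1, -0.40 for Lamc1 and -0.33 for Lama4, none past the threshold. Itga5 had the largest difference, with 16.5, 20.2 and 7.83 FPKM as deposited in CKO NEC libraries and 30.6, 21.01 and 35.9 FPKM in flox NEC libraries (-0.99 ± 0.34 SE, adjusted p = 0.840), and CKO NEC library 3 was the lowest. Of the chains and subunits described here as epithelial, Lama5 had a change of -0.48 ± 0.20 SE, Lama3 of -0.07 ± 0.25 SE and Lamb3 of 0.28 ± 0.36 SE. Itgb4 had a change of -0.11 ± 0.22 SE, Itgb6 of 0.26 ± 0.15 SE, Itga3 of -0.05 ± 0.15 SE and Itga2 of -0.09 ± 0.11 SE. Apart from these, the change was -0.04 ± 0.10 SE for Itga6 and 0.03 ± 0.20 SE for Itgb5.

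**Figure D5:**
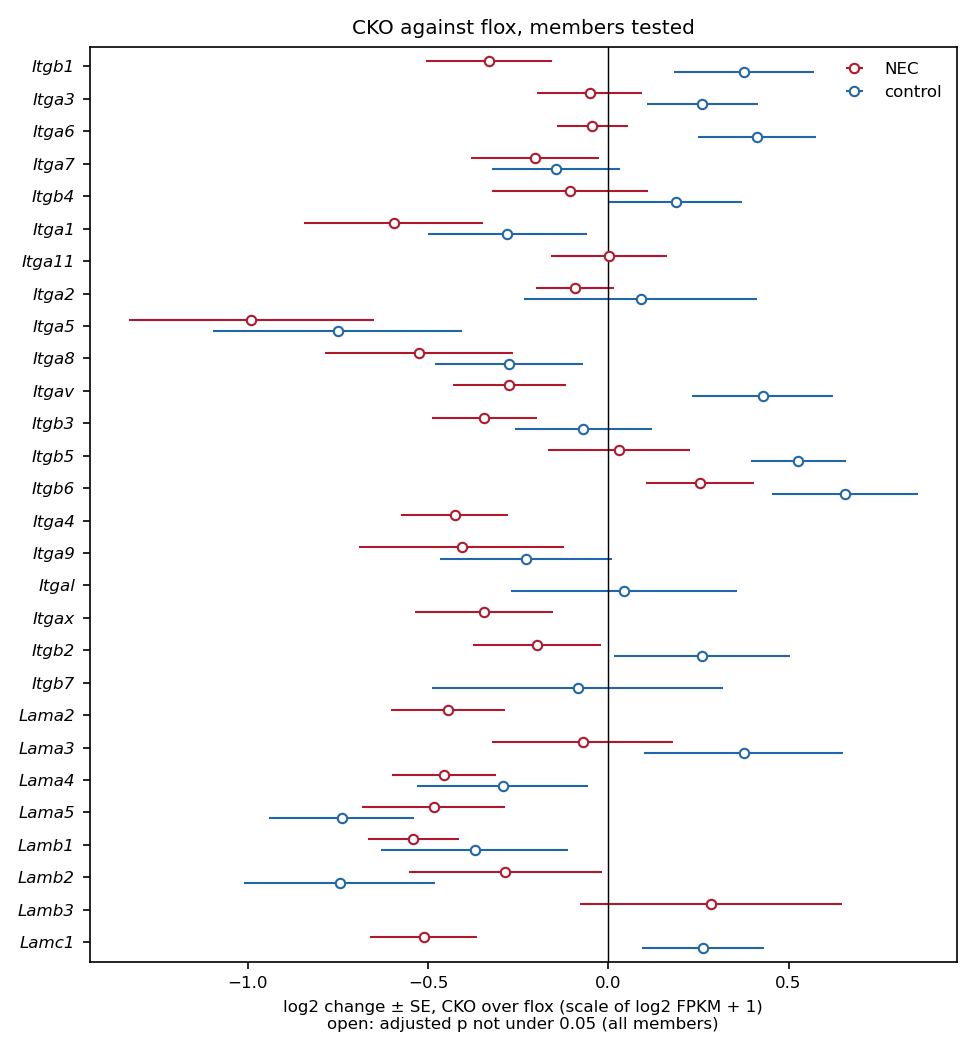
Change between CKO and flox for the members reported here that were tested, as log2 change ± SE on the scale of log2 (FPKM + 1) of deposited values, with NEC tissue above control tissue for each gene. All points are open because no member had an adjusted p under 0.05, and in NEC tissue 22 points lie below 0.

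In control tissue, between CKO and flox, Itgb5 and Itgb6 had higher means and Lama5 a lower mean in CKO, again with 0 of the 24 members tested past the threshold, where 0.00752% of the 13300 genes tested, a single gene, passed. At an unadjusted p under 0.05 there were 6 of the 24 members, beside 28.9% of all genes, and limma-voom called 0 members and 735 genes in all. Without flox control library 3 the test called 830 genes. The median change over the 24 was 0.07, beside 0.04 over all genes. Every CKO control library lay above every flox control library in 3 members (12.5%, against 21.8% of all genes) and below in 1 (4.17%, against 12.7%). Both shares were under those over all genes, so the members named here do not stand out from the rest. Itgb5 stood at 61.5, 68.7 and 52.3 FPKM as deposited in CKO control libraries and at 41.1, 42.8 and 41.15 FPKM in flox control libraries, without overlap (0.53 ± 0.13 SE, limma adjusted p = 0.0693). Lama5 stood at 6.25, 3.53 and 3.82 FPKM in CKO control libraries and at 8.77, 8.57 and 6.89 FPKM in flox control libraries, without overlap (-0.74 ± 0.20 SE, adjusted p = 0.0776). Without flox control library 3, 2 members were called higher in CKO, Lama3 among them (0.70, adjusted p = 0.0491), and 8 members lay above throughout (33.3%, against 32.2% of all genes) and 3 below (12.5%, against 20.8%). Without CKO control 1 they were 5 above (20.8%, against 26.7%) and 7 below (29.2%, against 18.1%). Without CKO control 3 they were 6 above (25%, against 29.6%) and 2 below (8.33%, against 19.3%). Itgb6, also without overlap, stood at 7.50, 9.22 and 12.4 FPKM in CKO control libraries and at 4.88, 5.30 and 7.05 FPKM in flox control libraries (0.66 ± 0.20 SE, adjusted p = 0.0934). Epithelial markers stood at 2500 to 3105 FPKM as deposited in CKO control libraries and 1789 to 2484 in flox control libraries, and fibroblast markers at 55.8 to 159.8 FPKM in CKO control and 143.6 to 278.3 FPKM in flox control. Smooth muscle markers stood at 184.9 to 590.2 FPKM in CKO control and 674 to 860.4 FPKM in flox control, and mesothelial markers at 8.86 to 23.4 FPKM in CKO control and 26.4 to 36.8 FPKM in flox control. Enteric glia and neuron markers stood at 5.16 to 17.6 FPKM in CKO control and 20.25 to 29.1 FPKM in flox control, and platelet markers at 3.11 to 5.16 FPKM in CKO control and 6.08 to 7.73 FPKM in flox control. Only the fibroblast sums overlapped among these 6 lists, with the epithelial sums higher and the others lower in CKO. Their part was not tested.

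Whether the NEC change differed between the genotypes was tested in 1 fit of all 12 libraries, as the NEC change in CKO less that in flox. None of the 29 members passed, where 0.773% of the 14609 genes tested did, 113 genes, and limma-voom called 161 genes and 0 members. That number of genes was 535 without flox control library 3, 288 without CKO control library 3 and 0 to 44 without any 1 of the others, while the members called were 0 each time. At an unadjusted p under 0.05 there were 6 members, beside 20.7% of all genes. The difference was below 0 in 24 of the 29, with a median of -0.26, beside -0.01 over all genes. This test uses the same libraries as the comparisons above. Lamc1 had the smallest p, with a difference of -0.76 ± 0.23 SE (limma adjusted p = 0.101), from NEC changes of 0.96 in CKO and 1.72 in flox. Itgb1 differed by -0.69 ± 0.27 SE (adjusted p = 0.175) and Itgav by -0.69 ± 0.27 SE (adjusted p = 0.173), with NEC changes of 0.53 and -0.33 in CKO and 1.22 and 0.36 in flox. For Lama3 the difference was -0.43 ± 0.41 SE (adjusted p = 0.589) and for Itgb5 -0.49 ± 0.25 SE (adjusted p = 0.304), so at this spread a larger fall in CKO could not be told from an equal one.

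Genes that work with integrins and laminins were counted from 4 lists. Over all 14609 genes tested, 20.2% were higher and 23% lower in NEC in CKO tissue, and 27.2% higher and 26.5% lower in flox tissue. Of 11 tested basement membrane partners, the nidogens, type IV collagens and proteoglycans that tie laminin into a sheet, 6 were higher and 0 lower in NEC in CKO tissue (median log2 change of 1.06), and 5 higher and 0 lower in flox tissue (0.66). Col4a1, a type IV collagen chain, averaged 72.8 ± 14.9 FPKM on the shared scale in CKO NEC and 29.2 ± 11.0 FPKM in CKO control (SD, n = 3, 1.33 ± 0.24 SE, limma adjusted p = 0.00138), and 94.4 ± 8.18 FPKM in flox NEC and 30.4 ± 5.38 FPKM in flox control (1.61 ± 0.24 SE, adjusted p = 0.000225). Col4a2, its partner chain, changed by 1.38 ± 0.22 SE in CKO (adjusted p = 0.000710) and 1.46 ± 0.22 SE in flox (adjusted p = 0.000263). Nid1, which links laminin to type IV collagen, changed by 1.10 ± 0.21 SE in CKO (adjusted p = 0.00191) and 1.88 ± 0.21 SE in flox (adjusted p = 3.99e-05). Between genotypes no partner was called, and in NEC tissue 0 of the 11 tested had a change above 0 (median of -0.32, beside 0.01 over all genes).

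Of 26 tested integrin adaptors and focal adhesion genes, 12 were higher and 6 lower in NEC in CKO tissue (median of 0.39), beside 20.2% and 23% of all genes. In flox tissue 11 were higher and 2 lower (0.29), beside 27.2% and 26.5% of all genes. Vcl, vinculin, which couples talin to actin, averaged 15.5 ± 1.88 FPKM on the shared scale in flox NEC and 2.37 ± 0.745 FPKM in flox control (SD, n = 3, 2.31 ± 0.25 SE, limma adjusted p = 3.48e-05). In CKO tissue Vcl was called higher too (1.12 ± 0.25 SE, adjusted p = 0.00459). Lims1, an adaptor of the integrin-linked kinase complex, changed by 0.69 ± 0.11 SE in CKO (adjusted p = 0.000571) and 1.01 ± 0.11 SE in flox (adjusted p = 2.70e-05). Tln2, a talin, changed by 0.86 ± 0.13 SE in CKO (adjusted p = 0.000454, limma-voom change of 1.57) and 0.87 ± 0.13 SE in flox (adjusted p = 0.000209). It stood at 1.83 to 2.39 FPKM in CKO NEC and 0.574 to 0.948 FPKM in CKO control libraries. Control libraries by themselves would not have brought Tln2 into the test. Parvg, among the 6 lower in CKO, averaged 0.315 ± 0.168 FPKM in CKO NEC and 1.04 ± 0.0785 FPKM in CKO control. NEC libraries by themselves would not have brought Parvg in, so the filter favoured a difference in both genes.

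Of 10 tested ligands, 3 were higher and 1 lower in NEC in CKO tissue, beside 20.2% and 23% of all genes. In flox tissue 5 were higher and 2 lower, beside 27.2% and 26.5% of all genes. Fn1, fibronectin, averaged 26.6 ± 9.27 FPKM on the shared scale in CKO NEC and 4.65 ± 1.84 FPKM in CKO control (SD, n = 3, 2.28 ± 0.30 SE, limma adjusted p = 0.000258), and 44.8 ± 6.13 FPKM in flox NEC and 6.45 ± 1.56 FPKM in flox control (2.63 ± 0.30 SE, adjusted p = 4.32e-05). Mfge8, a ligand of the alpha v receptors with Itgb3 and Itgb5, averaged 32.7 ± 7.87 FPKM in CKO NEC and 113 ± 12.3 FPKM in CKO control (-1.78 ± 0.17 SE, adjusted p = 5.41e-05), and 30.0 ± 0.657 FPKM in flox NEC and 71.7 ± 13.7 FPKM in flox control (-1.21 ± 0.17 SE, adjusted p = 0.000187).

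Of 5 tested genes for hemidesmosome parts and other laminin receptors, 2 were higher and 1 lower in NEC in CKO tissue, beside 20.2% and 23% of all genes. In flox tissue 3 were higher and 0 lower, beside 27.2% and 26.5% of all genes. Dag1, dystroglycan, a laminin receptor that is no integrin, stood at 36.5, 38.7 and 40.2 FPKM on the shared scale in CKO NEC libraries and at 28.8, 32.9 and 25.0 FPKM in CKO control libraries (0.41 ± 0.13 SE, limma adjusted p = 0.0284). In flox tissue Dag1 stood at 41.1, 43.6 and 43.8 FPKM in NEC libraries and at 13.3, 17.5 and 18.0 FPKM in control libraries (1.35 ± 0.13 SE, limma adjusted p = 1.86e-05). Its NEC change was smaller in CKO than in flox (difference of -0.95 ± 0.19 SE, adjusted p = 0.0482), the single gene of the 4 lists past that test, but 12 of 20 alternatives lost that call (-1.04 to -0.82 and adjusted p of 0.0321 to 0.126 over all 20). Among the 12 were leaving out any 1 library other than CKO control 3 and flox control 3. In CKO tissue Cd151, a tetraspanin that binds laminin-receptor integrins, changed by -0.77 ± 0.16 SE (adjusted p = 0.00323, and -0.42 after quantile normalization), and Bcam, a receptor for Lama5, by 0.81 ± 0.22 SE (adjusted p = 0.0129). The Bcam call was lost without CKO NEC 1 or CKO control 2 (adjusted p of up to 0.0550). In flox tissue neither Cd151 (-0.38 ± 0.16 SE, adjusted p = 0.0673) nor Bcam (0.38 ± 0.22 SE, adjusted p = 0.173) was called. Dst, a hemidesmosome linker, changed by 0.54 ± 0.13 SE in flox (adjusted p = 0.00400) and was not called in CKO (-0.02 ± 0.13 SE, adjusted p = 0.899).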

How the data were processed

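RNA was isolated with Trizol and libraries were prepared with the NEBNext Ultra II kit, per the labels' protocols (aligner, counter and build: not given in the sources used here). As deposited by the authors, the values are FPKM and gene lengths, in 1 table a condition. FPKM times length fell on whole multiples of 1 step per library (100% of values within 0.05), which gave back the reads and their depth. Each member's coordinates and length equalled those of GENCODE M21 (GRCm38). Genotypes were compared by limma 3.58.1 (R 4.3.3, trend) on log2 (deposited FPKM + 1), over the 6 libraries of a table. NEC against control, and the interaction, were fitted over all 12 libraries on reads divided by shared median-of-ratios factors and length. Genes needed 1 FPKM in 3 libraries, and p-values were Benjamini-Hochberg adjusted over all genes tested, with calls under 0.05. The fit and the recovery were tested on simulated data.

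Members and lists were chosen with earlier results of these data known. Values per library are given for up to 8 members with the largest rise and fall called per comparison, else for the 3 with the smallest p, and for the highest member of each role in flox NEC; of the other lists, up to 2 called genes a comparison are named. Further members with values were chosen after these were seen. A member of the counts is not reported here by itself, in the text or the figures. The alternatives were a pseudocount of 0.1, no filter, a mean FPKM of at least 5, equal medians, quantile normalization, a replicate block, limma-voom, all 4 groups in 1 fit or deposited FPKM across tables, and leaving out each library. Figures were drawn with matplotlib 3.10.9 (Python 3.11.15).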

Additional observations from a re-analysis of the deposited data

How the results depend on the processing

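Under all alternatives tried, no called member changed direction, and between genotypes in NEC and in the interaction 0 members were called. Requiring a mean FPKM of at least 5 left fewer genes to test, with 9 members higher in NEC in CKO and 8 in flox. Of the 7574 genes tested then, 3868 were called in either direction in CKO and 4725 in flox. Leaving out 1 library gave 11 to 17 members higher in CKO and 11 to 17 in flox, and 3 to 5 lower in CKO and 3 to 4 in flox. Over all genes, calls in either direction then numbered 4880 to 6512 in CKO and 6730 to 7981 in flox, of 14421 to 14548 tested. With all libraries they were 6303 and 7835 of 14609. Some members also left the test, such as Itga4 and Itga11 without flox NEC 1 or flox NEC 3. Between genotypes in control tissue, 2 members were higher and 1 lower in CKO with all 4 groups in 1 fit (Itgb6 among the higher, and Lama5), 0 to 2 were higher on leaving out 1 library, and 1 was higher with a replicate block (Itgb6). Leaving out 1 library, an alternative chosen after seeing the data, gave 0 to 4 members with every CKO NEC library above every flox NEC library (7.07% to 14% of all genes), 3 to 8 members above in control tissue (23.7% to 32.2% of all genes) and 1 to 7 below (14.8% to 20.8%), counts that can only stay or grow when a library is dropped. The cause of these shifts was not tested.

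Whether replicate numbers pair the libraries is not known. The correlations of same-numbered deviations ran between -0.136 and 0.366, and with 3 libraries a group they cannot decide it. With the replicate block, Itga7 (adjusted p = 0.0597) and Itgb1 (adjusted p = 0.0621, limma) were no longer called in CKO, and 903 genes were called between genotypes in control tissue against 1 without it. That count of genes was 760 at a mean FPKM of at least 5, 735 by limma-voom, 2051 with all 4 groups in 1 fit, 0 without a filter, 830 without flox control library 3 and 0 without any 1 of the other control libraries. Interaction calls over all genes were 113, with 6 without a filter, 38 at equal medians, 247 after quantile normalization, 181 on deposited FPKM and 344 at a mean FPKM of at least 5. On deposited FPKM, the median change of all genes was 0.10 in CKO and 0.13 in flox, and Itga5 in CKO and Itgav in flox were called too. Depth limits members near or below 1 FPKM, where Lamc3 (both genotypes) and Lama1 (CKO) were called in NEC without the filter. That setting lost the calls of Itga1, Itga7, Itgb1, Itgb2, Lamb2 and Lamb3 in CKO (adjusted p of 0.0600 to 0.0885) and of Itga7, Lama5 and Lamb3 in flox (0.0503 to 0.0972). Equal medians lost Itga7 and Itgb1 in CKO (0.0601 and 0.0628) and Lama5 and Lamb3 in flox (0.0689 and 0.0569). Quantile normalization lost Itga7 in CKO (0.0985) and Lamb3 in flox (0.0566), and gained Itga3 in flox.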
